A study of Oryctolagus cuniculus with 134 samples.

Results

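Collagen chains are the structural proteins of heart valve leaflets and of the aortic wall. The genes described here are those that the annotation of the count tables names as collagen alpha chains, that is COL, a type number, A and a chain number. There were 32 of them among 29587 annotated rabbit genes, of which 14716 carried a symbol. By the structure of the protein they comprised 9 fibrillar genes (COL1A1, COL1A2, COL2A1, COL3A1, COL5A2, COL5A3, COL11A1, COL11A2 and COL24A1), 7 genes of basement membranes (COL4A1 to COL4A6 and COL15A1), 4 genes of networks and microfibrils (COL8A1, COL8A2, COL6A5 and COL6A6), 7 FACIT genes (fibril-associated collagens with interrupted triple helices: COL9A1, COL9A2, COL12A1, COL14A1, COL16A1, COL19A1 and COL21A1) and 5 others (COL17A1, COL23A1, COL25A1, COL26A1 and COL28A1). Of 45 chain names in use, 13 were not found as symbols (COL5A1, COL6A1 to COL6A4, COL7A1, COL9A3, COL10A1, COL13A1, COL18A1, COL20A1, COL22A1 and COL27A1), so the main chains of type VI collagen and the partner of COL5A2 were not analysed here.

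Each collagen chain coils with partner chains of its type into a triple helix. Fibrillar collagens pack into the tensile fibrils of the wall and leaflet, with types I and III as the bulk and type V setting fibril diameter, whereas types II and XI build the fibrils of cartilage. Type IV chains form the sheet of basement membranes, type VIII forms a lattice beneath endothelium and in injured vessel wall, and FACIT collagens sit on the surface of fibrils and link them to the matrix around them. In valves the leaflet is layered, and collagen remodelling and cartilage-like or bone-like matrix are known features of calcific disease.

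The samples were from 27 male New Zealand White rabbits, which entered a 16-week protocol at 12 weeks of age. Ctrl rabbits ate chow. CHT rabbits received a diet with 0.3% cholesterol and Lard rabbits a diet with 5% lard. Both were given vitamin D2 for 15 days, in a dose of 25000 U/day that the paper scales to body weight. IR/CHT rabbits had the CHT regimen and 24 Gy of cardiac X-rays, given as 3 fractions of 8 Gy after 8 weeks of diet and aimed at the aortic valve and thoracic aorta. Ctrl rabbits had no vitamin D2, so the diets and vitamin D2 cannot be told apart against Ctrl. A ring of aorta (Ao) and the aortic (AoV), mitral (MV), pulmonary (PV) and tricuspid (TV) valves were taken from each animal at the end, which gave 7 Ctrl, 6 CHT, 7 Lard and 7 IR/CHT libraries per tissue, except for 6 Ctrl libraries of the mitral valve. Replicates of a group were thus different rabbits, and p-values of treatment comparisons within a tissue rest on the spread between animals. The main models that compare tissues, on chow or in their responses, treated libraries of the same rabbit as independent. Models with rabbit as a block were an alternative.

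Libraries held 13564979 to 50577676 counted reads (median 18235577), of which 0.656% to 3.59% (median 1.49%) were on collagen genes. Levels are CPM, reads scaled to a common library total, on library sizes scaled by the trimmed mean of M-values (TMM), and 3 reads corresponded to 0.0575 to 0.234 CPM. They are not divided by gene length, so a gene's level is compared between samples, and which gene of a class holds the most reads depends on gene length too. A gene was called when its Benjamini-Hochberg adjusted p in edgeR's quasi-likelihood test was under 0.05 over all genes tested in that tissue and its fold change was over 1.5. Of the 32 genes, 31 had enough reads to be tested in aorta, 30 in aortic valve, 29 in mitral valve, 30 in pulmonary valve and 29 in tricuspid valve. COL26A1 was tested in no tissue, COL9A1 in aorta alone, and COL19A1 was not tested in mitral or tricuspid valve. In such whole-tissue samples fewer cells of a type and less RNA per cell cannot be told apart.

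Smooth muscle markers (7 genes) summed to 90598 to 125316 CPM in Ctrl aorta and to 1510 to 3557 CPM in the 4 Ctrl valves. Heart muscle markers (10 genes) were present in the valves at very unequal levels, from 49.5 to 5847 CPM in Ctrl pulmonary valve and from 629.7 to 44549.7 CPM in Ctrl tricuspid valve. Counts were deposited by plate, of which there were 2, and what step a plate refers to is not given in the sources used here. Plate 2 held all aorta libraries, plate 1 held those of the aortic and mitral valve from CHT rabbits, and the other valve groups were split. A pair of libraries stood apart in their collagen counts. The Ctrl tricuspid replicate L168 had 7684 CPM of COL1A1 against 359 to 529 in the other 6, 1169 CPM of COL16A1 against 27.2 to 54.2, and 629.7 CPM of heart muscle markers against 9272 to 44549.7. The IR/CHT pulmonary replicate L275 had 2351 CPM of COL1A1 against 216 to 332 in the other 6, and 108 CPM of endothelial markers against 1107 to 1525. No mitral valve library was among the samples for the rabbit of L168. Whether L168 and L275 hold the tissue on their labels was not tested. Some of the calls and values that these libraries affect are given with and without them. Log2 differences between valves on chow are given only with L168 included.

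On chow, collagen genes together had a median of 14104 CPM in aorta, 20419 in aortic valve, 16404 in mitral valve, 11858 in pulmonary valve and 11004 in tricuspid valve. Fibrillar genes took a median of 59.8% of collagen reads in aorta, 60.2% in aortic valve, 67.3% in mitral valve, 41.8% in pulmonary valve and 56.3% in tricuspid valve. FACIT genes took a median of 52.5% in pulmonary valve. The gene with the most reads of each class, a place that gene length can set, is given here to compare its level between tissues. Among fibrillar genes it was COL3A1, the chain of type III collagen, in every tissue, with 3398 to 9505 CPM (median 4933) in aorta and 2415 to 3154 (median 2677) in pulmonary valve. Among FACIT genes it was COL14A1 in aorta, at 1951 to 3134 CPM (median 2888), as it was in mitral and tricuspid valve. COL12A1 took that place in aortic valve, at 1652 to 4428 CPM (median 3462), and in pulmonary valve, at 2889 to 4968 (median 4153). Among basement membrane genes it was COL4A1 in aorta, at 309.7 to 1427 CPM (median 597), and in aortic valve, at 109.8 to 563.9 (median 375). COL15A1, a basement membrane proteoglycan with collagen domains, had the most reads in mitral and tricuspid valve and COL4A5 in pulmonary valve. Of the network genes it was COL8A1 in aorta and COL6A6, a chain of type VI collagen, in each of the 4 valves, where its median was 225 CPM in aortic, 453 in mitral, 191.2 in pulmonary and 481 in tricuspid valve. COL25A1, a transmembrane collagen known from brain, had the most reads of the remaining 5.

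**Figure D1:**
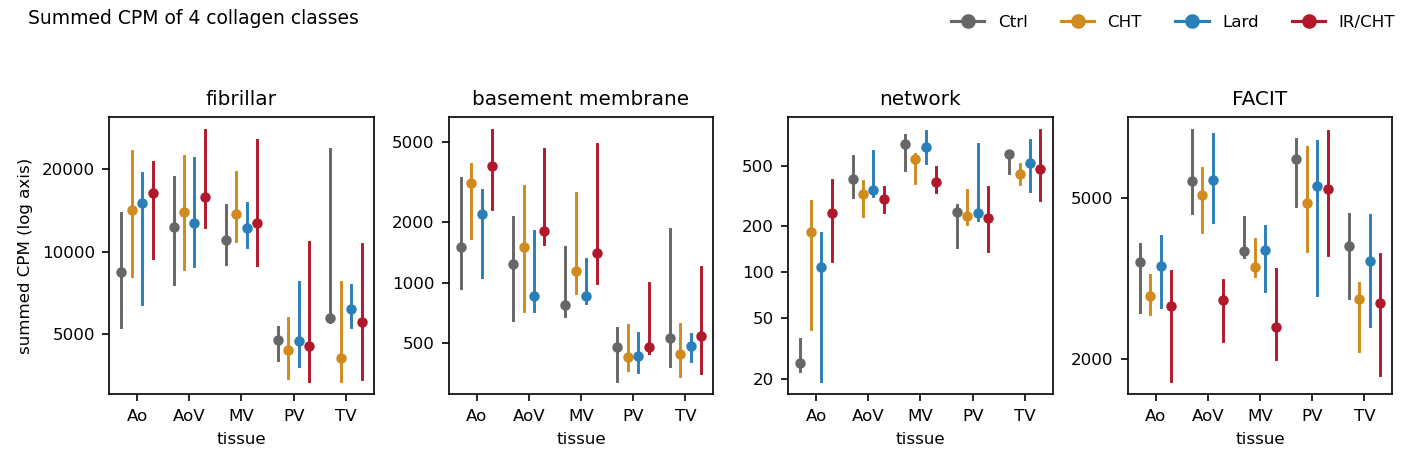
Summed CPM (log axis) of the collagen genes of 4 structural classes in each tissue, by treatment. Points are group medians and lines run from the lowest to the highest library of 6 or 7 rabbits. Network collagens of the aorta had a median of 25.6 CPM on chow and 243.3 CPM in IR/CHT, and FACIT collagens of the aortic valve 5518 and 2806 CPM.

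On chow the aorta differed from the mean of the 4 valves in 22 of 30 collagen genes, 9 higher and 13 lower. Among all 15372 genes tested 34.1% were called in this contrast, 14.5% higher and 19.5% lower. The median log2 difference was -0.58 over the collagen genes and -0.01 over all genes. All 4 network genes were lower in aorta, among them COL6A5, which had few reads there. Of 7 basement membrane genes 5 were higher and 2 lower. COL11A1, the first chain of type XI collagen, was at 0.378 to 2.16 CPM (median 1.09) in Ctrl aorta and at 103 to 183.9 (median 130.3) in Ctrl aortic valve, with the ranges of all 4 valves above that of the aorta, and its log2 difference was -6.50 (SE 0.26, adjusted p = 4.26e-20). COL12A1, which ties type I fibrils to their surroundings, was at 94.2 to 209.6 CPM (median 148) in aorta, below every Ctrl valve library, with a difference of -3.99 (SE 0.21, adjusted p = 6.71e-17). COL6A6 differed by -4.71, COL6A5 by -4.89, COL8A2 by -3.11 and COL8A1 by -2.62. In the other direction COL4A1 and COL4A2, the chains of nearly all basement membranes, were higher in aorta by 2.47 (SE 0.32, adjusted p = 7.17e-08) and 2.27 (SE 0.43, adjusted p = 5.81e-05) on the log2 scale. COL4A5 and COL4A6, which form the collagen IV around smooth muscle, differed by 1.20 and 1.42, whereas COL4A3 and COL4A4, known from kidney basement membrane, were lower, at -1.93 and -2.75. The other genes called were COL11A2 (-3.63), COL24A1 (-3.57), COL17A1 (-1.97), COL23A1 (-1.78) and COL25A1 (-0.63) lower, and COL28A1 (2.95), COL19A1 (1.17), COL15A1 (1.02), COL21A1 (0.87) and COL14A1 (0.65) higher. Of the called genes COL6A5, COL11A2, COL17A1, COL19A1 and COL24A1 had 10 or more reads in fewer than 6 Ctrl aorta libraries, so their differences rest on few aorta reads. On plate 2 alone, which held every aorta library, 20 genes were called. COL19A1 was no longer called without Ctrl aorta replicate L571 (0.81, edgeR adjusted p = 0.118), COL14A1 fell under the fold threshold when any 1 of 12 libraries was left out (0.56 to 0.58), and COL25A1 lost its call for 14 (-0.68 to -0.48).

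The left heart valves (aortic and mitral) exceeded the right heart valves (pulmonary and tricuspid) in 18 of 30 collagen genes on chow, and none was called lower. Of all genes 33.2% were called, 25.2% higher and 8.01% lower, and the medians were 0.87 over collagen genes and -0.03 over all genes. COL16A1, a FACIT collagen of fibril surfaces, was at 180.7 to 2125 CPM (median 840.4) in aortic and 82.1 to 673 (median 216) in mitral valve, and at 31.7 to 60 (median 52.3) in pulmonary and 27.2 to 1169 (median 46.9) in tricuspid valve, where the highest value was that of L168. Its left to right log2 difference was 2.41 (SE 0.51, adjusted p = 0.000445). COL1A1, the alpha 1 chain of type I collagen, was at 906 to 7229 CPM (median 2626) in aortic valve and at 189.9 to 313 (median 227) in pulmonary valve, ranges that did not overlap, whereas those of mitral valve, 519 to 3541 (median 1328), and tricuspid valve, 359 to 7684 (median 470.5), overlapped, also without L168, since the other 6 tricuspid libraries had 359 to 529 CPM. The left to right difference was 2.06 (SE 0.46, adjusted p = 0.000612). COL1A2, its partner chain, differed by 0.96 (SE 0.20, adjusted p = 0.000317) and COL3A1 by 0.79 (SE 0.16, adjusted p = 0.000322). Type IV chains COL4A2 and COL4A1 differed by 2.34 and 1.69. The remaining 12 genes called (COL5A3, COL11A2, COL8A2, COL9A2, COL2A1, COL23A1, COL15A1, COL25A1, COL8A1, COL6A5, COL24A1 and COL5A2) differed by 0.67 to 2.03. With the libraries of plate 1 alone 18 genes were higher and 1 lower. With plate 2 alone, where the groups had 2 to 4 libraries, edgeR called none of the collagen genes and none of all genes. Without the tricuspid replicate L168, 19 were higher and 1 lower. The left to right differences given above, among them those of COL16A1 and COL1A1, all include L168. COL6A5 was not called without aortic valve replicate L261 (0.79, edgeR adjusted p = 0.0938).

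Semilunar valves (aortic and pulmonary) differed from atrioventricular valves (mitral and tricuspid) in 9 collagen genes, 4 higher and 5 lower, beside 5.82% of all genes (1.38% higher and 4.44% lower). The medians were 0.04 and -0.05. COL12A1 was higher by 1.21 (SE 0.15, adjusted p = 8.20e-07), COL4A3 by 1.43, COL4A4 by 1.06 and COL11A2 by 1.76 on the log2 scale. COL6A6 was lower, at -1.14 (SE 0.14, adjusted p = 8.23e-07), as were COL28A1 (-1.58), COL15A1 (-1.04), COL8A1 (-0.86) and COL1A2 (-0.63). Plate 1 alone also gave 9 calls, 5 higher and 4 lower, plate 2 alone gave 0 beside 99 genes in all, and without L168 there were 11, 7 higher and 4 lower. COL1A2 lost its call when any 1 of 20 libraries was left out (-0.65 to -0.33). The analyses of plate 1 alone and without L168 were chosen after the data had been seen.

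In the aorta the CHT regimen raised 7 of 31 collagen genes and lowered none. Called genes made up 19.4% of all 14777 genes tested, 14.2% higher and 5.18% lower, and the median log2 fold change was 0.65 over the collagen genes and -0.04 over all genes. COL8A1, the type VIII chain made by smooth muscle and endothelium, was at 12.3 to 21.5 CPM (median 14) in Ctrl and 27.8 to 276.1 (median 168.6) in CHT. Every CHT library lay above every Ctrl library, and the log2 fold change was 3.46 (SE 0.50, adjusted p = 7.53e-06). COL11A1 went from 0.378 to 2.16 (median 1.09) to 2.53 to 58 CPM (median 6.6), again with no overlap, a log2 fold change of 3.65 (SE 0.98, adjusted p = 0.00621). Fibrillar COL1A2 rose from 891 to 2111 (median 1647) to 1847 to 6638 CPM (median 3375), with 5 of 6 CHT libraries above the Ctrl range (log2 fold change 1.43, SE 0.34, adjusted p = 0.00254). COL5A2, a chain of the type V collagen at the core of type I fibrils, rose with a log2 fold change of 1.07 (SE 0.24, adjusted p = 0.00135). The basement membrane genes COL15A1, at 1.17 (SE 0.30, adjusted p = 0.00437), and COL4A4, at 0.99 (SE 0.28, adjusted p = 0.00855), had CHT ranges that overlapped Ctrl. The last of the 7, COL12A1, was at 0.79 (SE 0.27, adjusted p = 0.0288), and lost its call without any 1 of Ctrl replicates L569 and L571 and CHT replicates L561, L572 and L574 (0.70 to 0.73, adjusted p = 0.0573 to 0.0762).

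Other chains of the same fibrils and sheets did not pass the test in CHT aorta. COL1A1 was at 284 to 1724 CPM (median 691) in Ctrl and 817 to 3206 (median 2100) in CHT (log2 fold change 1.31, SE 0.51, adjusted p = 0.0522), and COL3A1 had a log2 fold change of 0.53 (SE 0.26, adjusted p = 0.129). COL4A1 was at 0.55 (SE 0.35, adjusted p = 0.248), COL4A2 at 0.25 (SE 0.41, adjusted p = 0.701) and COL14A1 at -0.25 (SE 0.15, adjusted p = 0.231). COL2A1, the type II chain of cartilage, was at 67.5 CPM in CHT replicate L561, 10.8 in L559 and 0.253 to 0.498 in the other 4, and in Ctrl it was at 9.52 in L552 and 0.192 to 0.565 in the other 6, so that single rabbits of both groups stood far above the rest (log2 fold change 3.00, SE 1.48, adjusted p = 0.133).

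In IR/CHT aorta 18 of 31 collagen genes rose and 1 fell, and their median log2 fold change against Ctrl was 1.10. Among all genes 34.3% were called, 22.2% higher and 12.2% lower, with a median of 0.00. Fibrillar genes rose in 8 of 9 cases, basement membrane genes in 4 of 7, network genes in 2 of 4 and FACIT genes in 2 of 7, and 1 FACIT gene fell. Leaving aside genes with 10 or more reads in fewer than 6 Ctrl aorta libraries, fibrillar genes rose in 5 of 6 cases, network genes in 2 of 3 and FACIT genes in 1 of 5. COL8A1 reached 108 to 386 CPM (median 221) (log2 fold change 4.11, SE 0.51, adjusted p = 3.68e-07), and its partner COL8A2 went from 0.386 to 2.16 (median 1.6) to 1.56 to 9.13 (median 5.1) CPM (log2 fold change 1.95, SE 0.53, adjusted p = 0.00318). All 7 IR/CHT libraries were above the Ctrl range for COL8A1 and 6 of 7 for COL8A2. COL11A1 stood at 22.5 to 161.1 CPM (median 44.4) (log2 fold change 5.72, SE 1.02, adjusted p = 4.84e-05). COL1A1 was at 1789 to 6035 CPM (median 3129), wholly above Ctrl, with a log2 fold change of 2.18 (SE 0.50, adjusted p = 0.000832), and COL1A2 at 2322 to 4572 (median 3884), also wholly above, with 1.42 (SE 0.33, adjusted p = 0.00093). COL5A2 rose by 1.09 (SE 0.23, adjusted p = 0.000351) and COL5A3, a further type V chain, by 2.09 (SE 0.53, adjusted p = 0.00181). COL3A1 was the fibrillar gene that did not pass, at 4373 to 8525 CPM (median 6426) (log2 fold change 0.32, SE 0.25, adjusted p = 0.291).

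The FACIT gene that fell in IR/CHT aorta was COL21A1, a collagen known from the smooth muscle of vessel walls. It went from 378 to 501 (median 458) to 67.8 to 331 CPM (median 203) with no overlap (log2 fold change -1.17, SE 0.21, adjusted p = 5.75e-05). COL12A1 rose from 94.2 to 209.6 (median 148) to 291 to 683 CPM (median 386), also with no overlap (log2 fold change 1.53, SE 0.26, adjusted p = 3.41e-05), and COL14A1 was at -0.49 (SE 0.15, adjusted p = 0.00777). Of the basement membrane genes COL4A4 had a log2 fold change of 1.36 (SE 0.27, adjusted p = 0.000175), COL15A1 of 1.36 (SE 0.29, adjusted p = 0.00037), COL4A1 of 1.02 (SE 0.34, adjusted p = 0.0147) and COL4A2 of 1.10 (SE 0.40, adjusted p = 0.0246), all with some IR/CHT libraries inside the Ctrl range. The transmembrane collagen COL23A1 went from 0.826 to 2.9 (median 1.21) to 3.99 to 15 CPM (median 8.65) with no overlap (log2 fold change 2.50, SE 0.62, adjusted p = 0.00158), and COL17A1, another transmembrane collagen, was called at 1.89. COL4A2 lost its call without Ctrl replicate L553, L568 or L570 or IR/CHT replicate L566 or L567 (0.88 to 1.01, adjusted p = 0.0515 to 0.0774), and COL17A1 without L566 (1.60, edgeR adjusted p = 0.0547).

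**Figure D2:**
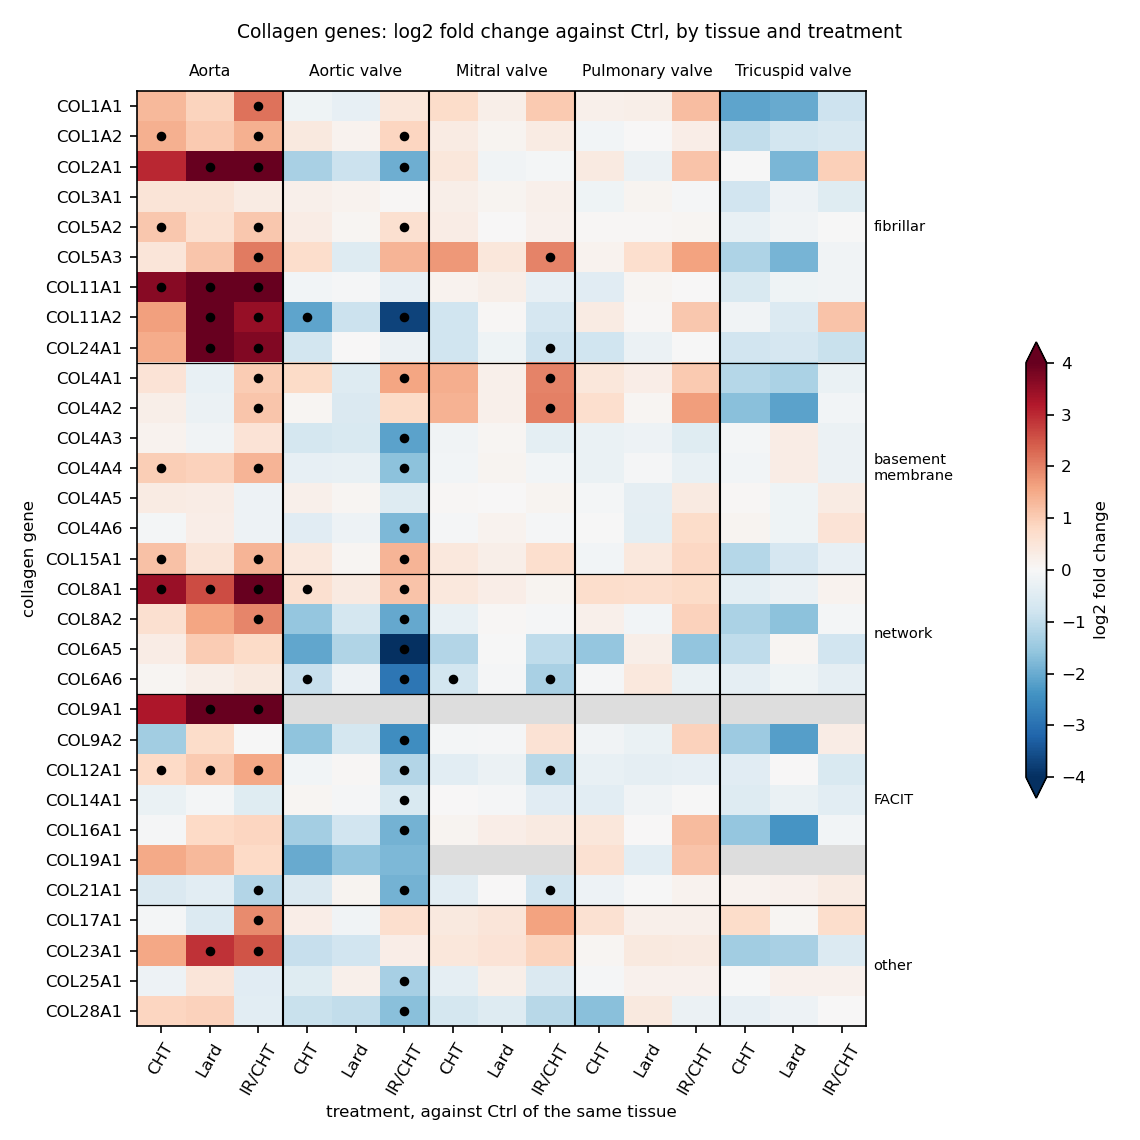
Log2 fold change against Ctrl (colour, capped at 4 in either direction) of every tested collagen gene (rows, by structural class) in each tissue under each treatment (columns). Dots mark called genes and grey marks genes not tested. IR/CHT aorta has dots on 18 genes that rose and IR/CHT aortic valve on 15 that fell, and the pulmonary and tricuspid valves have none.

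Genes of cartilage fibrils varied from rabbit to rabbit in the aorta. On chow 7 collagen genes (COL2A1, COL6A5, COL9A1, COL11A2, COL17A1, COL19A1 and COL24A1) had 10 or more reads in fewer than 6 aorta libraries, so calls on them rest on reads of the treated libraries. They made up 5 of the 19 calls in IR/CHT and 4 of the 8 calls in Lard. COL2A1 in IR/CHT aorta was at 169.2 CPM in replicate L567, 83.1 in L582, 5.83 to 30.0 in 4 others and 0.593 in L580 (log2 fold change 4.78, SE 1.52, adjusted p = 0.0109). COL9A1, which coats type II fibrils, was at 0 in 5 of 7 Ctrl libraries and at 0 to 11.6 (median 0.0477) CPM in IR/CHT (edgeR log2 fold change 5.26, a value that depends on the prior count). COL11A2 was called at 3.50 and COL24A1, a fibrillar chain of developing bone, at 3.70. Without IR/CHT replicate L567, COL11A2 (2.32, edgeR adjusted p = 0.104) and COL9A1 (2.94, edgeR adjusted p = 0.154) were not called.

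Under the Lard regimen 8 of 31 collagen genes rose in aorta and none fell, beside 2.61% of all genes (2.57% higher and 0.0406% lower). Their median log2 fold change was 0.90 against 0.01 for all genes. The genes were COL2A1, COL11A1, COL11A2 and COL24A1 among the fibrillar genes, COL8A1 among network genes, COL9A1 and COL12A1 among FACIT genes, and COL23A1. COL2A1 was at 731 CPM in replicate L578, 333 in L562, 243.1 in L575, 63.2, 29.0 and 13.5 in 3 others, and at 0 in L576 (log2 fold change 6.93, SE 1.64, adjusted p = 0.0197). COL9A1 exceeded 10 CPM in the same L578, L562 and L575 (10.9, 17.0 and 13.7) and was between 0.0622 and 0.875 in the other 4. COL11A1 was at 1.93 to 326 CPM (median 55.7), with 6 of 7 libraries above the Ctrl range (log2 fold change 6.59, SE 1.05, adjusted p = 0.0014), and COL8A1 at 7.77 to 165 (median 96.2), with 6 above and 1 below it (log2 fold change 2.61, SE 0.48, adjusted p = 0.00406). None of the 31 collagen genes had groups that did not overlap, and the share of all genes without overlap is not given here. COL12A1 was at 1.04 (SE 0.26, adjusted p = 0.0278), COL11A2 at 5.83, COL24A1 at 4.95, COL23A1 at 2.88 and COL9A1 at 6.86. The type I chains had values of 0.90 (SE 0.49, adjusted p = 0.373) for COL1A1 and 1.03 (SE 0.33, adjusted p = 0.0973) for COL1A2, and COL3A1 was at 0.51 (SE 0.25, adjusted p = 0.314).

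The Lard calls in the aorta depended on the libraries and the model. Without replicate L578 there were 4, and COL23A1 (1.70, edgeR adjusted p = 0.0631) and COL2A1 (6.08, edgeR adjusted p = 0.0525) were among those lost. COL9A1 lost its call without Ctrl replicate L552, L553, L568, L569, L570 or L571 or Lard replicate L562, L575 or L578 (6.36 to 7.28, adjusted p = 0.055 to 0.0694), and COL12A1 without Ctrl L568, L569 or L571 or Lard L562, L575 or L578 (0.90 to 1.01, adjusted p = 0.0605 to 0.0864). With only the Ctrl and Lard libraries in the edgeR model none of the collagen genes and none of all genes were called.

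**Figure D3:**
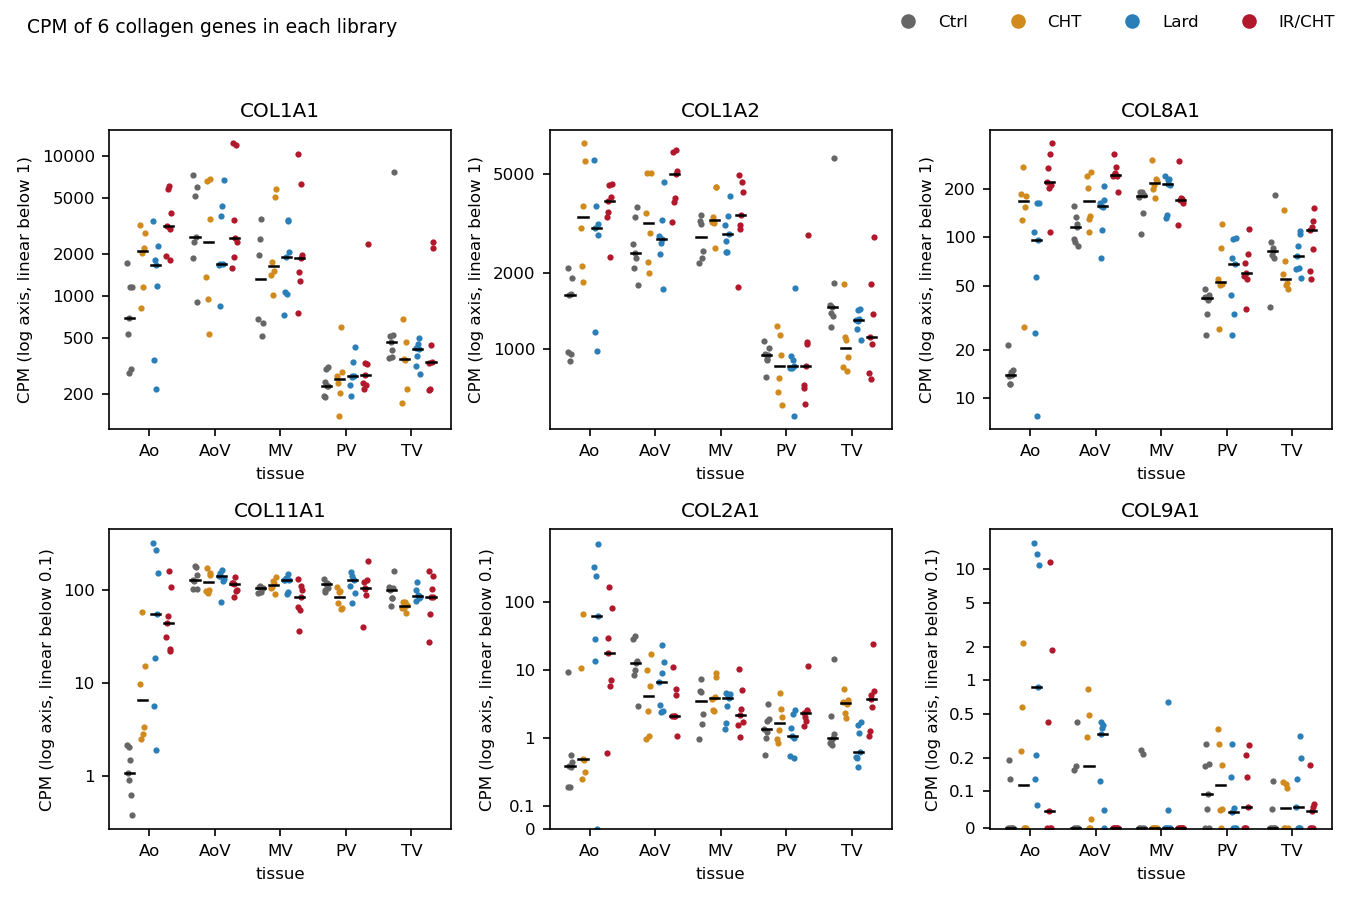
CPM of 6 collagen genes (log axis, linear near 0) in every library, by tissue and treatment. Bars are group medians. COL8A1 and COL11A1 of the aorta lay above the Ctrl range in all CHT and IR/CHT libraries, and COL2A1 and COL9A1 of the aorta spread widely among rabbits of the same treatment, with COL2A1 from 0 to 731 CPM in Lard.

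Against CHT alone, irradiation changed no collagen gene of the aorta by edgeR (0 of 31, 10 at an unadjusted p under 0.05, 1 by DESeq2), beside 0.596% of all genes, and the median log2 fold change was 0.48 against 0.02 for all genes. COL1A1 had a log2 fold change of 0.87 (SE 0.51, adjusted p = 0.298), COL2A1 of 1.78 (SE 1.35, adjusted p = 0.422) and COL8A1 of 0.65 (SE 0.47, adjusted p = 0.393). Without IR/CHT replicate L579 there were 2 calls.

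Markers of other cell types moved in the same aorta libraries, where 14.2%, 2.57% and 22.2% of all genes rose and 5.18%, 0.0406% and 12.2% fell in CHT, Lard and IR/CHT. Macrophage markers (11 genes) summed to 69.4 to 301 CPM in Ctrl, 425 to 1053 in CHT, 187.7 to 462 in Lard and 590 to 2128 in IR/CHT, and 9, 4 and 11 of 11 rose. Endothelial markers (9 genes) went from 122 to 235.1 CPM in Ctrl to 202 to 1055 in CHT, 237.5 to 581.5 in Lard and 270.8 to 1185 in IR/CHT, and 8, 1 and 8 of 9 rose. Smooth muscle markers fell in 3 of 7 cases in CHT (36015 to 89993 CPM) and in 6 of 7 in IR/CHT (13462 to 67517 CPM), and were at 58507 to 115405 CPM in Lard. Bone markers rose in 4, 5 and 5 of 7 cases, from 26.2 to 103 CPM in Ctrl to 340.5 to 917 in CHT, 32.4 to 1553 in Lard and 471 to 1229.5 in IR/CHT, and SP7, a transcription factor of osteoblasts, was at 0 in every Ctrl library. Cartilage markers other than collagens (7 tested) rose in 2 cases under each treatment, and 2 fell in IR/CHT, and their sum was 265.7 to 483 CPM in Ctrl, 401 to 548.7 in CHT, 324 to 817 in Lard and 475 to 679 in IR/CHT. The part of these cells in the collagen values was not tested.

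In the aortic valve the CHT regimen changed 3 of 30 collagen genes, 1 higher and 2 lower, beside 11.9% of all 15408 genes (8.42% higher and 3.48% lower). The median was -0.40 over collagen genes and -0.02 over all genes. COL8A1 was at 88.5 to 156.9 CPM (median 116) in Ctrl and 108 to 256 (median 169.5) in CHT (log2 fold change 0.64, SE 0.21, adjusted p = 0.0442). COL6A6 was at 125 to 340.2 CPM (median 225) and 84.1 to 160.9 (median 119) (log2 fold change -0.92, SE 0.31, adjusted p = 0.0446), and COL11A2, the second type XI chain, at 11.6 to 133.6 CPM (median 33.6) and 2.64 to 24.5 (median 8.75) (log2 fold change -2.10, SE 0.64, adjusted p = 0.0274). The groups overlapped in each case. All CHT libraries of this valve were on plate 1, and with plate as a covariate or plate 1 alone none of the 3 was called by edgeR, while DESeq2 called 4 genes, all lower. COL6A6 and COL8A1 each lost their call when 1 of 11 libraries was left out (-0.97 to -0.80 with adjusted p = 0.0509 to 0.11, and 0.52 to 0.67 with adjusted p = 0.0502 to 0.138), and COL11A2 without Ctrl L150 or L166 or CHT L169, L186 or L228. Without CHT replicate L169 no call was left, and without L198, L228, L240, L261 or L265 there was 1. COL1A1 was at -0.18 (SE 0.62, adjusted p = 0.858), COL1A2 at 0.41 (SE 0.23, adjusted p = 0.228) and COL3A1 at 0.21 (SE 0.19, adjusted p = 0.447), and COL4A1, COL4A2, COL2A1 and COL12A1 were at 0.77, 0.08, -1.28 and -0.11, none of them called. Heart muscle markers were at 198.5 to 12907 CPM in Ctrl and 20.3 to 377 CPM in CHT aortic valve, and 8 of 10 fell, whose part in these values was not tested.

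After irradiation the aortic valve had the most collagen calls of the 4 valves. Against Ctrl 20 of 30 genes were called, 5 higher and 15 lower, beside 42.8% of all genes (21.1% higher and 21.7% lower), and the medians were -0.88 and -0.06. FACIT genes fell in 5 of 6 cases, network genes in 3 of 4 with 1 higher, basement membrane genes in 3 of 7 with 2 higher, fibrillar genes in 2 of 9 with 2 higher, and 2 of the 4 remaining genes fell. The summed FACIT level was 4591 to 7399.9 CPM in Ctrl and 2221 to 3140.1 CPM in IR/CHT, with no overlap. COL21A1 went from 161.2 to 319 (median 207) to 9.15 to 89.9 CPM (median 76.2) (log2 fold change -1.90, SE 0.31, adjusted p = 1.61e-05), each library below the Ctrl range. COL12A1 went from 1652 to 4428 (median 3462) to 1072 to 1776 CPM (median 1365) (log2 fold change -1.17, SE 0.23, adjusted p = 0.000177), with 6 of 7 below it. COL9A2, a second chain of type IX collagen, fell, with a log2 fold change of -2.50, and COL16A1 and COL14A1 had -1.88 and -0.59. COL14A1 was not called without any 1 of 8 libraries (Ctrl L182, L240 and L277, CHT L265, Lard L173 and L543, IR/CHT L178 and L236), at -0.58 to -0.41.

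The network genes of the irradiated aortic valve moved in both directions. COL6A6 went from 125 to 340.2 (median 225) to 9.4 to 52.1 CPM (median 32.6) with no overlap (log2 fold change -2.88, SE 0.31, adjusted p = 2.17e-08). COL8A1 rose from 88.5 to 156.9 (median 116) to 192.7 to 332 CPM (median 243.1), also with no overlap (log2 fold change 1.13, SE 0.21, adjusted p = 5.82e-05), while COL8A2 went from 11.6 to 70.9 (median 39.2) to 3.81 to 25 CPM (median 5.88) (log2 fold change -2.06, SE 0.52, adjusted p = 0.00195). The chains of type VIII collagen thus had opposite signs in this valve. COL6A5 was called lower at -4.04 although no IR/CHT library lay below the lowest Ctrl library.

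Of the 6 type IV chains of the irradiated aortic valve 3 fell, 1 rose and 2 were not called. COL4A3 went from 47.1 to 127 (median 82.3) to 3.73 to 29.6 CPM (median 23.6), COL4A4 from 61.7 to 146 (median 82.6) to 4.36 to 52.9 (median 36) and COL4A6 from 47 to 109.6 (median 72.3) to 15.1 to 27.6 (median 23.8), each without overlap. Their log2 fold changes were -2.16 (SE 0.34, adjusted p = 1.03e-05), -1.65 (SE 0.35, adjusted p = 0.000302) and -1.81 (SE 0.22, adjusted p = 1.42e-07). COL4A1 rose from 109.8 to 563.9 (median 375) to 539.7 to 1993 CPM (median 706), with 6 of 7 above the Ctrl range (log2 fold change 1.57, SE 0.45, adjusted p = 0.00535), and COL15A1 rose by 1.36 (SE 0.29, adjusted p = 0.000404). COL4A2 was at 0.75 (SE 0.59, adjusted p = 0.297) and COL4A5 at -0.51 (SE 0.21, adjusted p = 0.0428), the latter under the fold threshold.

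Of the 9 fibrillar genes of the irradiated aortic valve COL11A2 and COL2A1 fell, COL5A2 and COL1A2 rose, and 5 were not called. COL11A2 went from 11.6 to 133.6 (median 33.6) to 1.3 to 8.28 CPM (median 2.84) with no overlap (log2 fold change -3.72, SE 0.65, adjusted p = 3.28e-05), and COL2A1 from 2.99 to 31.7 (median 12.6) to 1.08 to 11 CPM (median 2.15) (log2 fold change -1.96, SE 0.66, adjusted p = 0.0155). COL5A2 rose from 1090 to 1641 (median 1359) to 1650 to 2428 CPM (median 2291) with no overlap (log2 fold change 0.65, SE 0.12, adjusted p = 8.29e-05) and COL1A2 from 1804 to 3678 (median 2412) to 3222 to 6211 CPM (median 4981), with 6 of 7 above the Ctrl range (log2 fold change 0.87, SE 0.23, adjusted p = 0.00236). COL1A1 was at 1580 to 12280 CPM (median 2569) (log2 fold change 0.46, SE 0.59, adjusted p = 0.541), with 2 of 7 above the Ctrl range, and COL3A1 at 0.06 (SE 0.18, adjusted p = 0.802). COL11A1 was at -0.32 (SE 0.18, adjusted p = 0.14) and COL5A3 at 1.35 (SE 0.74, adjusted p = 0.133). Of the other genes COL25A1 fell, at -1.31 (SE 0.20, adjusted p = 7.37e-06), and COL28A1 fell, at -1.67 (SE 0.61, adjusted p = 0.0247), the latter with few reads on chow and not called without IR/CHT replicate L236 or L257. Plate 1 alone gave 15 calls, 3 higher and 12 lower, and plate 2 alone 13, 4 higher and 9 lower. The shares of all genes called on each plate alone are not given here.

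The comparison of IR/CHT with CHT, which share diet and vitamin D2 and differ in irradiation, had 10 of 30 collagen genes called in the aortic valve, 1 higher and 9 lower. All genes were called at 19.7%, 9.9% higher and 9.85% lower, and the medians were -0.52 and 0.02. COL6A6 was at 84.1 to 160.9 CPM (median 119) in CHT, above each IR/CHT library (log2 fold change -1.96, SE 0.31, adjusted p = 5.34e-05). COL4A6 (-1.35, SE 0.22, adjusted p = 9.45e-05), COL21A1 (-1.33, SE 0.32, adjusted p = 0.00299) and COL12A1 (-1.05, SE 0.24, adjusted p = 0.00214) were likewise lower without overlap. COL4A3, COL4A4, COL25A1, COL4A5 and COL14A1 fell, with log2 fold changes of -1.46, -1.31, -0.83, -0.72 and -0.68, and COL15A1 rose by 0.94. No fibrillar gene was called here by edgeR (COL1A1 0.64, COL1A2 0.46, COL3A1 -0.15, COL2A1 -0.68). On plate 1 alone 9 genes were called, all lower. COL15A1 lost its call without IR/CHT L178 or L194 or CHT L186 or L228 (0.78 to 0.84, adjusted p = 0.0554 to 0.0814), and COL14A1 without IR/CHT L178 or L236 or CHT L265.

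Beside these values macrophage markers of the aortic valve summed to 197.7 to 623 CPM in Ctrl, 748 to 1109 in CHT and 1903 to 2261 in IR/CHT, and 9 of 11 rose in IR/CHT, where 21.1% of all genes rose and 21.7% fell. Schwann cell markers fell in 3 of 3 tested cases, from 65.8 to 203 CPM in Ctrl to 6.66 to 68.3 in IR/CHT. Cartilage markers other than collagens fell in 5 of 7 cases and rose in 1, and heart muscle markers fell in 9 of 10. Fibroblast and valve interstitial markers fell in 4 of 9 cases and rose in 1, and summed to 13825 to 27267 CPM in Ctrl and 22509 to 41391 in IR/CHT. The part of these cells in the collagen values was not tested. The Lard regimen changed no collagen gene of the aortic valve by edgeR (0 of 30, 0 at an unadjusted p under 0.05, 0 by DESeq2), beside 0.234% of all genes, and the median was -0.25 against -0.03.

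In the mitral valve the CHT regimen lowered 1 of 29 collagen genes, COL6A6, beside 5.62% of all 15322 genes (4.98% higher and 0.64% lower), and the median was 0.04. COL6A6 was at 324 to 597 CPM (median 453) in Ctrl and 132 to 373 (median 282) in CHT (log2 fold change -0.73, SE 0.21, adjusted p = 0.0356), groups that overlapped. This call was lost with plate as a covariate and on plate 1 alone, and without any 1 of CHT replicates L157, L170 and L266 and Ctrl replicates L199, L241 and L278 (-0.69 to -0.59, adjusted p = 0.0766 to 0.0997). Without Ctrl L262 there were 3 calls, and without L179, L187 or L245 there were 2. The Lard regimen changed none by edgeR (0 of 29, 0 at an unadjusted p under 0.05, 0 by DESeq2), as was so for all genes (0%), and the median of the collagen genes was 0.10.

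In IR/CHT mitral valve 7 of 29 collagen genes were called, 3 higher and 4 lower, beside 17.7% of all genes (11.1% higher and 6.65% lower), with medians of -0.05 and -0.01. COL12A1 went from 1494 to 2124 (median 1648) to 566.4 to 983 CPM (median 866) with no overlap (log2 fold change -1.11, SE 0.17, adjusted p = 3.06e-05), and COL6A6 from 324 to 597 (median 453) to 129 to 274.6 CPM (median 193.01), also with none (log2 fold change -1.29, SE 0.21, adjusted p = 4.12e-05). COL21A1 fell, at -0.75 (SE 0.22, adjusted p = 0.0111), as did COL24A1, at -0.84 (SE 0.29, adjusted p = 0.036). The basement membrane chain COL4A1 rose from 118 to 486 (median 174.4) to 276.1 to 2277 CPM (median 554), with 6 of 7 above the Ctrl range (log2 fold change 1.98, SE 0.47, adjusted p = 0.0028). COL4A2 (2.01, SE 0.71, adjusted p = 0.0355) and COL5A3 (1.99, SE 0.68, adjusted p = 0.0311) had 2 of 7 libraries above it. COL1A1, COL1A2, COL3A1, COL8A1 and COL2A1 were at 1.04, 0.33, 0.19, 0.11 and -0.06, none of them called. COL4A2 (1.25 to 2.06, adjusted p = 0.0584 to 0.173) and COL5A3 (1.24 to 2.01, adjusted p = 0.055 to 0.156) both lost their calls without IR/CHT L179 or L195 or Ctrl L156, L183, L199, L241 or L278, and COL24A1 when any 1 of 8 libraries was left out (-0.86 to -0.72, adjusted p = 0.0504 to 0.0985). There were 4 calls without L156, L195 or L199. Plate 1 alone gave 3 calls, all lower, and plate 2 alone 5, 2 higher and 3 lower. Macrophage markers of the mitral valve were at 219 to 665 CPM in Ctrl, 611 to 992 in CHT and 826 to 1362 in IR/CHT, where 8 of 11 rose, and their part was not tested. IR/CHT against CHT had no collagen call by edgeR (0 of 29, 4 at an unadjusted p under 0.05, 1 by DESeq2, 1 without CHT L266), beside 0.189% of all genes.

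The pulmonary and tricuspid valves had no collagen call in any comparison by edgeR. In pulmonary valve (30 genes) the numbers at an unadjusted p under 0.05 were 6 for CHT, 1 for Lard, 15 for IR/CHT and 9 for IR/CHT against CHT, and DESeq2 called 4 for IR/CHT and 0 for the others. All genes were called at 0.159%, 0%, 0.706% and 0.0761%. In tricuspid valve (29 genes) the numbers were 9, 9, 5 and 1, DESeq2 called 1 for IR/CHT and 0 for the others, and all genes were called at 0.163%, 0%, 0.231% and 0%. The pulmonary gene nearest to a call was COL4A2, at 8.32 to 20.4 CPM (median 16.1) in Ctrl and 18.2 to 134.1 (median 22.9) in IR/CHT (log2 fold change 1.66, SE 0.42, adjusted p = 0.0544). It was at 134.1 CPM in L275 and at 18.2 to 74.4 CPM in the other 6. Leaving out IR/CHT L180, L238, L259 or L549 or CHT L230 gave 1 call in IR/CHT against Ctrl, and leaving out L275 gave 0 beside 123 genes in all. COL1A1 of the pulmonary valve was at 1.23 (SE 0.45, adjusted p = 0.189), COL8A1 at 0.77 (SE 0.30, adjusted p = 0.214), COL12A1 at -0.33 and COL3A1 at -0.05 in IR/CHT. Without L275 COL4A2 was at 1.12 (edgeR adjusted p = 0.183), COL1A1 at 0.16 (edgeR adjusted p = 0.935) and COL8A1 at 0.59 (edgeR adjusted p = 0.587).

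Among the tricuspid comparisons, IR/CHT against Ctrl depended on Ctrl replicate L168, while CHT and Lard against Ctrl had 0 collagen calls with or without it by edgeR. Without it, IR/CHT against Ctrl had 7 collagen genes called, all higher, among 985 genes in all. They were COL9A2 (3.13), COL2A1 (2.52), COL11A2 (2.40), COL16A1 (2.29), COL8A2 (1.97), COL4A6 (0.84) and COL25A1 (0.75), with edgeR adjusted p from 0.0205 to 0.0419. COL9A2 had 10 or more reads in fewer than 6 Ctrl tricuspid libraries, so its call rests on reads of the treated libraries. With it, COL1A1 was at 359 to 7684 CPM (median 470.5) in Ctrl and 212 to 2430 (median 336) in IR/CHT (log2 fold change -0.82, SE 0.70, adjusted p = 0.869), and without it the sign turned (1.07, SE 0.49, edgeR adjusted p = 0.137).

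Responses were compared between tissues by the interaction in 1 model of all libraries (17030 genes, 31 collagen genes, called at adjusted p under 0.05). A response is the signed log2 fold change against Ctrl, so a lower one is a smaller rise or a larger fall. The comparisons are not independent of each other, since the tissues came from the same rabbits and each tissue's Ctrl libraries served all its treatments. For CHT 8 collagen genes had a lower response in aortic valve than in aorta and none a higher one, beside 10.3% of all genes (4.76% higher and 5.58% lower). The log2 differences in response were -2.80 (SE 0.47, adjusted p = 8.50e-06) for COL8A1, -4.27 for COL2A1, -3.74 for COL11A1, -3.73 for COL11A2, -3.52 for COL19A1, -2.47 for COL23A1, -1.31 for COL4A4 and -0.74 for COL5A2. COL11A2 fell in CHT aortic valve (-2.10) and was at 1.65 (SE 1.25, adjusted p = 0.345) in aorta, whereas COL8A1 was called higher in both tissues. Of the 8 genes, 3 (COL2A1, COL11A2 and COL19A1) were among those with few reads on chow in aorta, which left 5. With rabbit as a block 13 were called.

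For IR/CHT 17 collagen genes had a lower response in aortic valve than in aorta and none a higher one, beside 36.7% of all genes (18.6% higher and 18.1% lower). Of the 17, 6 (COL2A1, COL6A5, COL9A1, COL11A2, COL19A1 and COL24A1) had few reads on chow in aorta, so that they were tested on reads of other libraries, and COL9A1 was not tested within the aortic valve, which left 11. The median difference was -2.19 over the collagen genes and -0.12 over all genes. It was -2.63 (SE 0.37, adjusted p = 5.36e-09) for COL12A1, which rose in aorta and fell in aortic valve, -7.17 (SE 1.15, adjusted p = 2.59e-07) for COL11A2 and -2.92 (SE 0.45, adjusted p = 1.04e-07) for COL8A1, which rose in both. The 19 genes called in aorta and the 20 called in aortic valve shared 11. COL1A2, COL4A1, COL5A2, COL8A1 and COL15A1 were higher in both and COL21A1 lower in both, while COL2A1, COL4A4, COL8A2, COL11A2 and COL12A1 were higher in aorta and lower in aortic valve. The shared genes were 57.9% of the aorta calls and 55.0% of the aortic valve calls, beside 61.3% of the tested collagen genes called in aorta and 66.7% in aortic valve, so the overlap was no larger than these call rates.

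The mitral valve had a higher IR/CHT response than the aortic valve in 8 collagen genes and a lower one in none, beside 18.8% of all genes (8.48% higher and 10.4% lower). Aortic against pulmonary valve differed in 16 collagen genes, 1 higher and 15 lower (15 genes in all without COL19A1, which had few reads on chow in both), beside 40.8% (19.1% higher and 21.6% lower), and there were 15 (2 higher and 13 lower) without L275, where COL14A1 (-0.56, edgeR adjusted p = 0.0597) and COL2A1 (-2.40, edgeR adjusted p = 0.110) were not called. Without L168 there were 16, and COL5A2 was not among them (0.49, edgeR adjusted p = 0.0501). Mitral against tricuspid valve differed in COL4A1 (2.23, SE 0.62, adjusted p = 0.0107) and COL21A1 (-1.07, SE 0.31, adjusted p = 0.0134), beside 8.21% (5.86% higher and 2.35% lower), and COL4A1 was not called without L168 (1.42, edgeR adjusted p = 0.127). For CHT mitral against tricuspid valve differed in COL4A1 alone (2.54), beside 2.2% (2.16% higher and 0.0411% lower). It was not called without L168 (1.76, edgeR adjusted p = 0.187), nor with rabbit as a block. CHT in mitral against aortic valve (0 of 31 by edgeR, 1 at an unadjusted p under 0.05, 0 by DESeq2) and in aortic against pulmonary valve (0, 6 and 0) had no call, beside 0% and 5.11% of all genes. For Lard, tested after the data had been seen, 7 collagen genes had a lower response in aortic valve than in aorta, beside 4.8% (1.38% higher and 3.42% lower). Of these, 4 (COL2A1, COL9A1, COL11A2 and COL24A1) had few reads on chow in aorta, which left COL8A1, COL11A1 and COL23A1. The other Lard contrasts had 0 by edgeR and by DESeq2 (0 mitral against aortic, 0 aortic against pulmonary and 8 mitral against tricuspid at an unadjusted p under 0.05), beside 0%, 0.112% and 0% of all genes.

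Ratios of chains within a library do not depend on its scaling. For 4 pairs the log2 ratio was compared in 20 comparisons each by an exact two-sided permutation test, and 10 of 80 passed at an adjusted p under 0.05. The ratio of COL3A1 to COL1A2 had a median of 3.68 in Ctrl aorta, 2.04 in CHT and 1.88 in IR/CHT, with mean log2 differences from Ctrl of -0.83 and -1.08 and no overlap (exact permutation adjusted p = 0.0117 for both). In aortic valve it was 2.06 in Ctrl and 1.20 in IR/CHT (-0.79, exact permutation adjusted p = 0.0117), and IR/CHT against CHT gave -0.66 (exact permutation adjusted p = 0.0466), which was lost in 12 of the cases with 1 library left out and within plates. COL8A1 to COL8A2 had medians of 9.97 in Ctrl, 77.2 in CHT and 48.5 in IR/CHT aorta, and of 2.96, 16.1 and 38.3 in aortic valve. The log2 differences were 2.59 and 2.09 in aorta and 2.34 and 3.35 in aortic valve (exact permutation adjusted p = 0.0117, 0.0117, 0.0155 and 0.0117), and the CHT value of the valve did not pass within plates (exact permutation adjusted p = 0.0794). COL4A1 to COL4A2 was higher in CHT (2.16) and IR/CHT (3.32) than in Ctrl aortic valve (1.32), with differences of 0.79 and 1.05 (exact permutation adjusted p = 0.0117 for both), of which the CHT value did not pass within plates (exact permutation adjusted p = 0.0794). For COL1A1 to COL1A2 0 of 20 comparisons passed, with 3 at an unadjusted p under 0.05 and the smallest exact permutation adjusted p = 0.0646. None of the pairs passed in mitral, pulmonary or tricuspid valve.

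**Figure D4:**
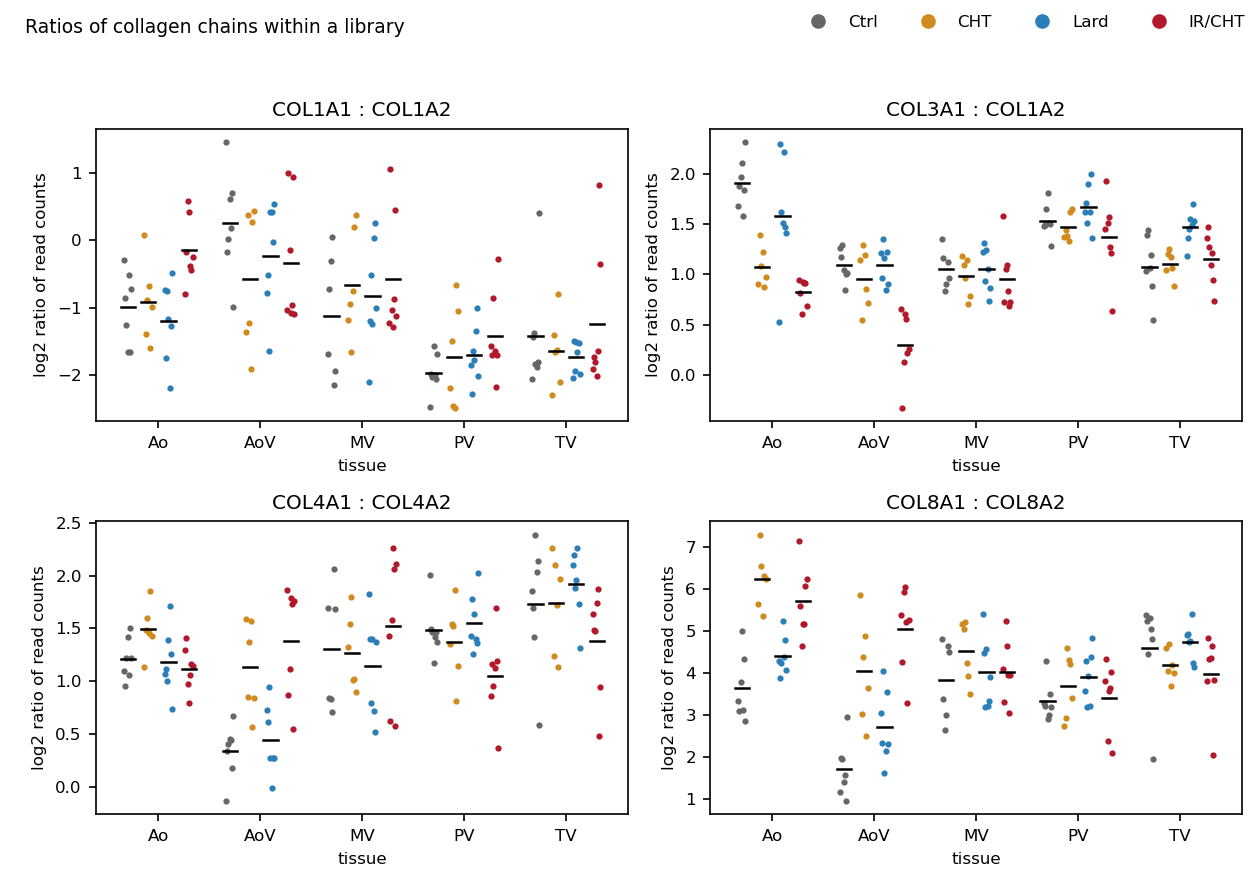
Log2 ratio of the CPM of chain pairs in every library, by tissue and treatment. Bars are group means of 6 or 7 rabbits. COL3A1 to COL1A2 fell from a median ratio of 3.68 in Ctrl to 1.88 in IR/CHT aorta, and COL8A1 to COL8A2 rose from 2.96 to 38.3 in aortic valve.

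Although type I collagen is built from both chains, the ratio of COL1A1 to COL1A2 varied widely, from 0.178 to 2.75 over all libraries (median 0.443), and its Pearson correlation with the log2 total of a library was 0.0250. Its median log2 value was -1.49 on plate 1 and -0.87 on plate 2. All aorta libraries were on plate 2, so plate and tissue cannot be told apart in these medians. The deviation from the group mean was compared between tissues of the same rabbit, over 10 pairs of tissues. Between aortic and mitral valve it correlated with Pearson's r = 0.829 and Spearman's rho = 0.817 over 26 rabbits (permutation p = 1e-05 for both, the smallest that 100000 permutations give, adjusted p = 1e-04). Without the 2 rabbits farthest from the median r was 0.786, and with plate means removed 0.768. In 23 of the 26 rabbits both libraries were on the same plate. Between pulmonary and tricuspid valve r was 0.455 (permutation p = 0.0165, adjusted 0.0596) and rho 0.523 (permutation p = 0.00589, adjusted 0.0294) over 27 rabbits, with r = 0.322 without the 2 farthest and 0.396 with plate means removed. Without L168 r was 0.695 (permutation p = 7.00e-05, adjusted 0.00035) and rho 0.723 (permutation p = 5.00e-05, adjusted 0.00025) over 26 rabbits, and without L275 r was 0.386 (permutation p = 0.0494, adjusted 0.124), both chosen after the data had been seen. Aorta and aortic valve gave r = 0.453 (permutation p = 0.0179, adjusted 0.0596) and rho 0.459 (permutation p = 0.0162, adjusted 0.0542), with r = 0.469 without the 2 farthest and 0.512 with plate means removed. Aorta and mitral valve gave r = 0.435 (permutation p = 0.0272, adjusted 0.0681) and rho 0.337 (permutation p = 0.0918, adjusted 0.229), with r = 0.389 and 0.593. The 6 other pairs of tissues had r from -0.219 to 0.104.

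**Figure D5:**
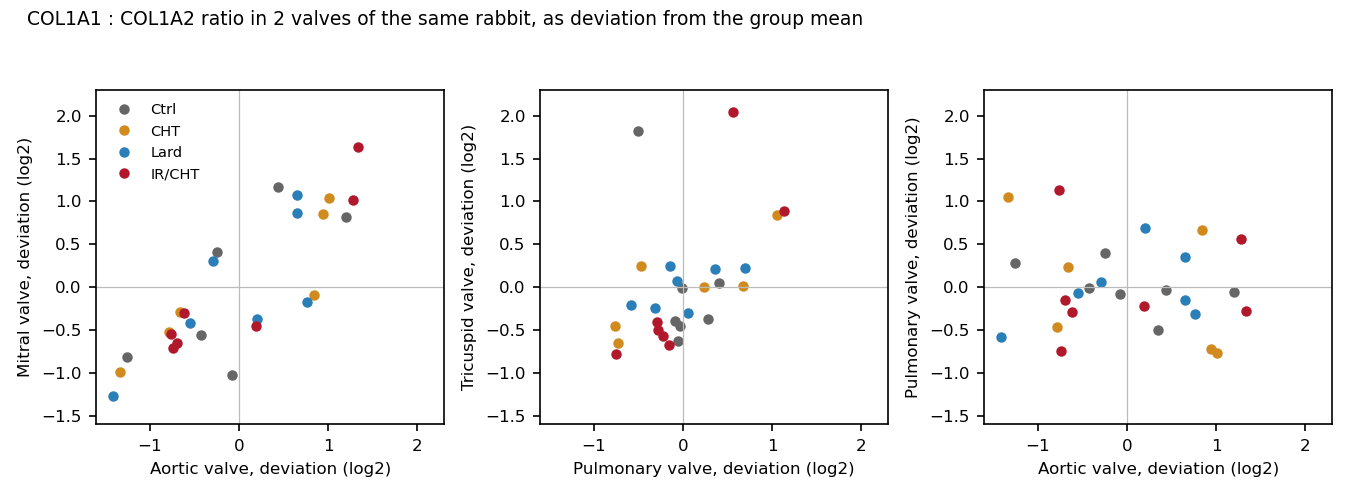
Deviation of the log2 ratio of COL1A1 to COL1A2 from the mean of its tissue and treatment, for pairs of valves of the same rabbit. Each point is 1 rabbit, with 26 for aortic and mitral valve and 27 for the other pairs. Aortic and mitral valve values rose together (r = 0.829), pulmonary and tricuspid values had r = 0.455 (0.695 without L168), and aortic and pulmonary values had r = -0.142.

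Collagen chains are modified, folded, trimmed and cross-linked before they form fibres, and 46 genes of these steps, of matrix proteoglycans and of collagen receptors were found. In CHT aorta 11 of 45 tested (24.4%) were called, 9 higher and 2 lower, beside 19.4% of all genes, and in IR/CHT aorta 29 (64.4%), 19 higher and 10 lower, beside 34.3%. In CHT aortic valve there were 3 of 46 (6.52%), all higher, beside 11.9% of all genes. In IR/CHT aortic valve there were 22 (47.8%), 8 higher and 14 lower, a share near the 42.8% of all genes, and in IR/CHT mitral valve 15 of 45 (33.3%), 3 higher and 12 lower, beside 17.7%. IR/CHT against CHT gave 11 (23.9%) in aortic valve, 1 higher and 10 lower, beside 19.7%. Lard gave 2 in aorta (4.44% beside 2.61%), CHT 1 in mitral valve (2.22% beside 5.62%), IR/CHT 1 in pulmonary valve (2.22% beside 0.706%), and IR/CHT against CHT 1 each in aorta and mitral valve (2.22% each, beside 0.596% and 0.189%).

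Among enzymes that hydroxylate collagen, P4HA3, a prolyl hydroxylase subunit, was at 0.189 to 1.63 CPM (median 0.512) in Ctrl, 2.37 to 7.56 CPM (median 5.61) in CHT and 5.89 to 19.3 CPM (median 13.7) in IR/CHT aorta (log2 fold change 3.23 in CHT; in IR/CHT log2 fold change 4.45, SE 0.59, adjusted p = 9.69e-07), and it was called in Lard aorta as well, at 2.50, a call that was absent, as were all others, with only the Ctrl and Lard libraries in the edgeR model. CRTAP, which works in prolyl 3-hydroxylation, rose in aortic valve by 0.82 in CHT and 1.34 in IR/CHT. Of the genes of propeptide removal, ADAMTS14, a protease that cuts the amino end of procollagen, rose by 2.56 and 3.00 in CHT and IR/CHT aorta, by 2.53 and 4.04 in aortic valve and by 1.92 and 2.60 in mitral valve. Its relative ADAMTS3 fell in IR/CHT aortic valve (-2.87) and mitral valve (-1.23), and PCOLCE2, an enhancer of the carboxyl cut, fell in CHT and IR/CHT aorta (-0.87 and -1.09).

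Of 5 tested cross-linking enzymes 2 rose in CHT aorta, IR/CHT aorta and IR/CHT aortic valve, where 14.2%, 22.2% and 21.1% of all genes rose. LOXL2 had log2 fold changes of 2.04, 2.09 and 0.97 there and 0.70 in IR/CHT mitral valve, and LOXL4 of 2.03, 2.07 and 1.13. Among 9 proteoglycans and fibril-binding genes 3 rose and 2 fell in IR/CHT aorta, and 5 fell and none rose in both the aortic and the mitral valve. Of all genes 22.2% rose and 12.2% fell in IR/CHT aorta, 21.1% and 21.7% in aortic valve and 11.1% and 6.65% in mitral valve. DCN, the decorin that coats type I fibrils, fell in IR/CHT aortic valve (log2 fold change -1.96, SE 0.40, adjusted p = 0.000233) and in mitral valve (-1.32), and DPT fell in both, at -2.08 and -1.03. LUM, another fibril-binding proteoglycan, rose in CHT and IR/CHT aorta by 0.96 and 1.19. Of 8 collagen receptors 4 rose and 3 fell in IR/CHT aorta, 1 rose and 4 fell in aortic valve and 3 fell in mitral valve, beside the same shares of all genes. ITGA2, a collagen-binding integrin subunit, rose in IR/CHT aorta (1.19) and fell in aortic (-1.66) and mitral valve (-1.34), and DDR2, a receptor kinase for fibrillar collagen, fell in all 3 (-1.40, -1.13 and -0.85).

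The genes whose log2 CPM most resembled that of COL1A2 over all libraries, as deviations from the means of the tissue and treatment groups, were LOXL2 (Pearson's r = 0.882), COL3A1 (0.863), ADAMTS2 (0.854), SCARA3 (0.829) and CTSF (0.823), out of 17030 genes. These are descriptions over libraries that share rabbits and plates. Among collagen genes themselves the median correlation of 465 pairs was 0.109, the highest was 0.949 (COL8A2 with COL16A1) and the lowest -0.607 (COL21A1 with COL5A3). By gene order in the mOryCun1.1 assembly, in which all 32 genes were found by name, 5 pairs were direct neighbours. COL4A1 with COL4A2 had r = 0.944, COL3A1 with COL5A2 0.832, COL4A3 with COL4A4 0.792, COL6A5 with COL6A6 0.369 and COL9A1 with COL19A1 0.0990.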

How the data were processed

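The authors deposited 1 table of gene counts for each of the 2 plates, with valve libraries in both and aorta libraries in the second alone. Per the labels, total RNA went through a stranded Pico library kit and a NovaSeq6000, and reads were demultiplexed with bcl2fastq 2.20 and counted with the nf-core/rnaseq pipeline on OryCun2.0. Groups followed the labels. Counts were filtered by filterByExpr, scaled by TMM and tested with glmQLFTest (edgeR 4.0.16 in R 4.3.3), in 1 model of 4 treatments per tissue, 1 model of Ctrl libraries with 3 contrasts and 1 interaction model, with Benjamini-Hochberg adjustment over all genes tested. DESeq2 1.42.0, the tool of the study, was an alternative, as were its size factors, no filter, plate, rabbit as a block, models of only the groups compared and each library left out. Fold changes of edgeR used its default prior count, and the log2 CPM behind the correlations of gene profiles used a prior count of 2. Chain ratios (0.5 reads added) used exact permutation tests (scipy 1.17.1). Scripts were tested on simulated data.

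The collagen genes, the other lists and the tests were chosen with earlier results of these data known. Named with full values were at most 3 called genes per class, direction and comparison, 9 fixed chains, and the 2 called genes with the smallest p of each processing list. Same-rabbit libraries deviated together (median correlation 0.162 to 0.442 by pair of tissues, against -0.0201 to 0.0055 for other rabbits), so the column prefix of the rabbit, taken from the file headers, served as the pairing. No library duplicated another.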

Additional observations from a re-analysis of the deposited data

Results flagged for a closer look

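In each of 20 groups of libraries 6 summed collagen levels were looked at, and in 14 of these 120 sums the highest or the lowest library lay far from the rest, which involved 8 libraries. Chance alone flags about 1 in 20 groups for a single measure if the values are normally distributed, which was not tested for these sums. The sums also overlap, since each class is part of the sum over all collagen genes. In Ctrl tricuspid valve the replicate L168 was the highest in all collagen genes (30552 CPM), fibrillar genes (23728 CPM), basement membrane genes (1846 CPM) and the genes outside the 4 main classes (103 CPM), and L159 was the lowest in network genes (446 CPM). In IR/CHT pulmonary valve L275 was the highest in all collagen genes (18074 CPM) and fibrillar genes (10900.5 CPM). In Lard pulmonary valve L271 was the highest in fibrillar genes (7751 CPM), network genes (687 CPM) and the genes outside the main classes (51.8 CPM). The aortic valve replicate L269 of the same rabbit was the highest Lard library in network genes (618 CPM). The other flagged sums were those of CHT tricuspid replicate L172 (fibrillar, 7752 CPM), Ctrl mitral replicate L262 (basement membrane, 1512 CPM) and IR/CHT tricuspid replicate L276 (network, 859 CPM), which is from the same rabbit as L275.

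L168 also had endothelial markers of 414 CPM against 992 to 1490 in the other 6, and cartilage markers of 815 CPM against 295 to 437. L275 had macrophage markers of 261.9 CPM against 687 to 862 in the other 6 and cartilage markers of 877 CPM against 385 to 621. Whether these libraries hold the tissue on their labels was not tested.

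In 59 cases the response of a collagen gene differed between tissues in the interaction test. The values are log2 differences in response, the first tissue minus the second, at an edgeR adjusted p under 0.05, and those of genes with few reads in a tissue (COL9A1, COL19A1, COL11A2, COL2A1, COL24A1 and COL6A5) depend on the prior count. For CHT in aortic valve against aorta they were COL5A2 -0.74, COL4A4 -1.31, COL8A1 -2.80, COL23A1 -2.47, COL11A2 -3.73, COL19A1 -3.52, COL11A1 -3.74 and COL2A1 -4.27. For IR/CHT in aortic valve against aorta they were COL4A4 -2.95, COL4A3 -2.65, COL6A6 -3.23, COL6A5 -4.78, COL8A1 -2.92, COL23A1 -2.19, COL11A2 -7.17, COL19A1 -2.53, COL9A1 -9.33, COL12A1 -2.63, COL11A1 -5.97, COL24A1 -3.88, COL9A2 -2.44, COL4A6 -1.56, COL8A2 -3.95, COL16A1 -2.70 and COL2A1 -6.69. For IR/CHT in mitral against aortic valve they were COL4A4 1.57, COL4A3 1.81, COL6A6 1.62, COL6A5 3.07, COL11A2 3.05, COL21A1 1.16, COL9A2 3.07 and COL4A6 1.77. For IR/CHT in aortic against pulmonary valve they were COL5A2 0.59, COL4A4 -1.34, COL4A3 -1.66, COL6A6 -2.62, COL6A5 -2.46, COL14A1 -0.57, COL11A2 -4.79, COL21A1 -2.03, COL19A1 -2.91, COL9A2 -3.42, COL4A6 -2.54, COL4A5 -0.87, COL25A1 -1.49, COL8A2 -2.98, COL16A1 -3.13 and COL2A1 -3.09. In mitral against tricuspid valve COL4A1 differed by 2.54 for CHT and 2.23 for IR/CHT, and COL21A1 by -1.07 for IR/CHT. For Lard in aortic valve against aorta they were COL8A1 -2.22, COL23A1 -3.61, COL11A2 -6.67, COL9A1 -5.69, COL11A1 -6.61, COL24A1 -4.91 and COL2A1 -7.76.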

How the results depend on the processing

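Read depth limited the low genes, since 3 reads were 0.0575 to 0.234 CPM, and groups of 6 or 7 rabbits limited all tests. Under another setting single genes and ratios kept direction and side of the threshold in 1081 cases, lost significance in 101, gained it in 3 and reversed in 3. With 1 library left out they kept both in 4661 cases, lost significance in 3.44% of cases, gained it in 12 cases and reversed in 19. Counts of calls stayed within 1.5 times in 290 and 1300 and moved further in 43 and 32. The cause was not tested unless stated. Counts of collagen calls under other settings stand without the share of all genes called under the same setting, unless that share is given.

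Collagen calls in Lard aorta fell to 0 with only the Ctrl and Lard libraries in the model. That model estimates the spread from these groups alone, and why the calls were lost was not tested. Calls in CHT aortic valve fell to 1 without the filter or with 2 groups in the model, and to 0 with plate as a covariate or on plate 1 alone. Their split was 0 higher and 2 lower with DESeq2 size factors and 0 and 4 by DESeq2. IR/CHT aortic valve had 13 on plate 2 alone. CHT mitral valve had 0 with 2 groups in the model, with plate as a covariate or on plate 1 alone, and 2 by DESeq2, 1 higher and 1 lower. IR/CHT mitral valve had 4 without the filter and 3 on plate 1 alone. IR/CHT against CHT had 1 by DESeq2 in aorta and 1 in mitral valve. IR/CHT pulmonary valve had 1 with plate as a covariate and 4 by DESeq2, and IR/CHT tricuspid valve 1 by DESeq2. Both contrasts among valves on chow had 0 on plate 2 alone, which held fewer libraries. Mitral against tricuspid valve under CHT had 2 with DESeq2 size factors or plate as a covariate and 4 by DESeq2, and Lard in aortic valve against aorta 12 by DESeq2. DESeq2 size factors moved the median interaction over all genes for IR/CHT in aortic valve against aorta from -0.12 to -0.23, with 0 of 19 collagen calls higher.

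With rabbit as a block, the pairing of libraries by animal, calls were 22 for aorta against valves, 11 between semilunar and atrioventricular valves and 19 between left and right valves on chow. The interactions had 13 calls for CHT in aortic valve against aorta, 0 for CHT in mitral against tricuspid valve and 11 for Lard in aortic valve against aorta, and no other count moved by over 1.5 times.

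Within plates 1 of the COL4A1 to COL4A2 ratios passed. In the processing lists DESeq2 called 1 hydroxylation gene each in aortic valve (IR/CHT against CHT), mitral valve (IR/CHT) and tricuspid valve (CHT and IR/CHT), 1 folding gene in CHT aorta, 2 in IR/CHT aortic valve and 0 in IR/CHT mitral valve. It called 2 propeptide genes in CHT aortic valve and 1 in mitral valve (IR/CHT against CHT), 1 cross-linking gene in aorta (IR/CHT against CHT) and in IR/CHT tricuspid valve, 1 proteoglycan in Lard aorta and in mitral valve (IR/CHT against CHT), and 1 receptor in Lard aorta, 2 in aorta and 2 in pulmonary valve (IR/CHT against CHT).

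The log2 fold change of COL1A1 in CHT aortic valve turned from -0.18 to 0.10 with plate as a covariate, that of COL3A1 in IR/CHT aortic valve from 0.06 to -0.20 on plate 1 alone and that of COL2A1 in IR/CHT mitral valve from -0.06 to 0.67 on plate 2 alone, none of them called. With 1 library left out COL4A2 ranged from -0.39 to 0.31 and COL1A1 from -0.49 to 0.059 in CHT aortic valve, COL3A1 from -0.038 to 0.17 in IR/CHT aortic valve, and COL8A1 from -0.044 to 0.19 and COL2A1 from -0.64 to 0.29 in IR/CHT mitral valve. It also gave 4 to 11 calls in Lard aorta, 0 to 2 in aorta for IR/CHT against CHT, 0 to 4 in CHT aortic valve, 0 to 3 in CHT and 4 to 8 in IR/CHT mitral valve, 0 to 1 in mitral valve for IR/CHT against CHT, 0 to 1 in IR/CHT pulmonary valve, 0 to 7 in IR/CHT tricuspid valve, 0 to 1 for CHT in mitral against tricuspid valve, and 0 to 1 passing COL1A1 to COL1A2 ratios. Interactions were refitted without L168 and without L275 alone. Those refits, the analysis of Lard interactions, and plate 1 alone and plate as a covariate on chow were chosen after seeing the data.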
